A study of Arabidopsis thaliana with 15 samples.

Results

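The heat shock response was followed in 9 genes: the transcription factor genes HSFA2 (AT2G26150) and HSFA7A (AT3G51910), the large chaperone genes HSP101 (AT1G74310) and HSP90.1 (AT5G52640), and 5 small heat shock protein genes. The small ones were HSP21 (AT4G27670), HSP22 (AT4G10250), HSP18.2 (AT5G59720), HSP17.4 (AT3G46230) and HSP17.6II (AT5G12020). They were taken by identifier from the count tables, where all 9 were found among 33977 features. RNA-seq had been run on 15 Arabidopsis plants (ecotype Col-0) in 5 groups of 3, taken at bolting and described as whole plants in the protocol and as whole rosettes in the tissue label. They grew at 22 °C with 12-h days, and no heat treatment is named for any group. Gen1 memory plants were progeny of an MSH1-RNAi plant that no longer carried the transgene and showed the altered growth phenotype. Gen1 nonmemory plants were full sibs of these, also without the transgene, with a normal look. Gen5 memory plants came from the memory lineage after repeated selfing, each generation from 1 individual, so they stand for 1 lineage. Gen1 WT and Gen5 WT were Col-0 control plants of the same generations, kept in parallel. Both memory groups thus had the RNAi transgene in their ancestry and lacked it when sampled, and nonmemory plants shared this history.

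Plants answer heat through heat shock transcription factors (HSFs), which bind repeated short elements in the promoters of chaperone genes. HSFA2 is itself heat-inducible and prolongs the response after the first wave, and HSFA7A is a heat-inducible factor of the same class. HSP101 pulls proteins out of aggregates, HSP90.1 is the heat-inducible cytosolic HSP90, and small heat shock proteins hold unfolding proteins in a state from which they can be refolded. HSP21 acts in chloroplasts and HSP22 in the endoplasmic reticulum, whereas HSP18.2, HSP17.4 and HSP17.6II are cytosolic.

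The HSF element consists of inverted GAA and TTC units, and it was searched in the 250 bases before each annotated gene start, in the RefSeq TAIR10.1 genome and annotation. The pair of units reads GAANNTTC or TTCNNGAA, each of which is its own reverse complement, so that a search of the gene's strand covers both. A run of 3 units adds a further TTC or GAA in turn after any 2 bases, and was found before 106 of 27443 protein-coding genes (0.386%). Of the 9 genes, HSFA2 had 1 such match, and HSFA7A and HSP17.4 had 2 each. Their upstream stretches are shown because they are the ones that hold the element. Each reads 5′ to 3′ on the strand of its gene and ends at the base before the annotated start, with the matches in capitals.
HSFA2, chr2:11135374-11135623, plus strand: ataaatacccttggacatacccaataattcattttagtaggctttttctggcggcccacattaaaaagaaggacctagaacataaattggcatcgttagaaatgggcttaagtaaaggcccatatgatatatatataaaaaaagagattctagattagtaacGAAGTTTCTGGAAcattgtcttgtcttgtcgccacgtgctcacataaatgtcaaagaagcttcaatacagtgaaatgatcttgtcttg
HSFA7A, chr3:19264891-19265140, plus strand: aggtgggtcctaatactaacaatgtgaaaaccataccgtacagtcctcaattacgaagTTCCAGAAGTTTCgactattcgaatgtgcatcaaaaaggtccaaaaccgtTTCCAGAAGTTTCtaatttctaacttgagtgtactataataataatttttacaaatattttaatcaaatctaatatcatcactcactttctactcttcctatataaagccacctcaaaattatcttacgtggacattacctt
HSP17.4, chr3:16984868-16985117, minus strand: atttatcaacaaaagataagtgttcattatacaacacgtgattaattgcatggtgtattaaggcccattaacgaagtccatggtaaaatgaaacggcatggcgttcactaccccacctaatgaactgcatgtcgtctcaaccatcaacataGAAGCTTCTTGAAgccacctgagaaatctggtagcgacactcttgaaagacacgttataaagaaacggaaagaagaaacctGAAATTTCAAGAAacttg
The HSFA2 match ran from base -88 to base -76 before the start. The HSFA7A matches began at -192 and -142 and had the same 13 letters, and those of HSP17.4 began at -99 and -18. A pair of units, which also lies inside any run of 3, was found before 16.1% of the protein-coding genes, and before HSP21 as the only further gene of the 9. A match of letters is not a bound site, and annotated starts need not be the starts used in these plants. For HSP90.1 the window ends in bases that read like the start of its coding sequence, so the lack of a match there does not describe the promoter of HSP90.1.

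Depth was even, with 77169986 to 79202824 counts on genes per plant. Counts were scaled by edgeR's TMM factors over all 15 plants, and these normalized counts are used throughout. No 2 replicate plants were alike within sampling noise (chi-square per degree of freedom from 12.3 to 117). The labels call the 3 plants of each group biological replicates. MSH1, the gene that the lost transgene had targeted, had 638 to 916 normalized counts over the 15 plants. Leaf markers dominated: 6 of 6 were detected, and their summed level was 1654000 to 2013000 normalized counts in the 9 plants outside the memory groups and 2491000 to 2951000 in the 6 memory plants. The leaf markers did not rise evenly. CAB2 had means of 246700 and 200600 normalized counts in Gen1 and Gen5 memory and 14040 to 48560 in the other groups. GAPA had means of 122700 and 136900 in Gen1 and Gen5 memory and 119200 to 136100 in the other groups. Flower organ markers summed to 65.7 to 132.5, with LFY at 0 in every plant, anther and pollen markers to 29.1 to 72.6, seed markers to at most 10.3 and root markers to at most 7.75.

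Scaled for exon length and depth (RPKM), the levels of the 9 genes spanned several orders of magnitude. HSP90.1 stood highest with a mean of 12.5 RPKM over the 15 plants (6.81 to 21.4), and HSFA2 had 2.96 RPKM and HSP101 2.73 RPKM. HSFA2 ran from 0.944 to 7.99 RPKM over the plants, and HSP101 from 1.98 to 3.92 RPKM. HSFA7A (1.08 RPKM), HSP18.2 (0.99 RPKM), HSP17.4 (0.505 RPKM) and HSP17.6II (0.16 RPKM) were lower. HSP21 and HSP22 were close to undetected. HSP21 had 4 raw counts in all, 1 each in Gen1 WT replicate 1 and Gen1 memory replicate 1 and 2 in Gen1 nonmemory replicate 1. HSP22 had 7, of which 4 were in Gen1 WT replicate 2, 1 in Gen1 memory replicate 2 and 2 in Gen1 nonmemory replicate 1. The other 12 plants had 0 for each of them, all Gen5 plants included, which allows a level of up to 3 counts, or 0.0379 to 0.0389 CPM (counts scaled to depth) by plant. Neither gene passed the expression filter of any test, so no fold change is given for them.

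**Figure D1:**
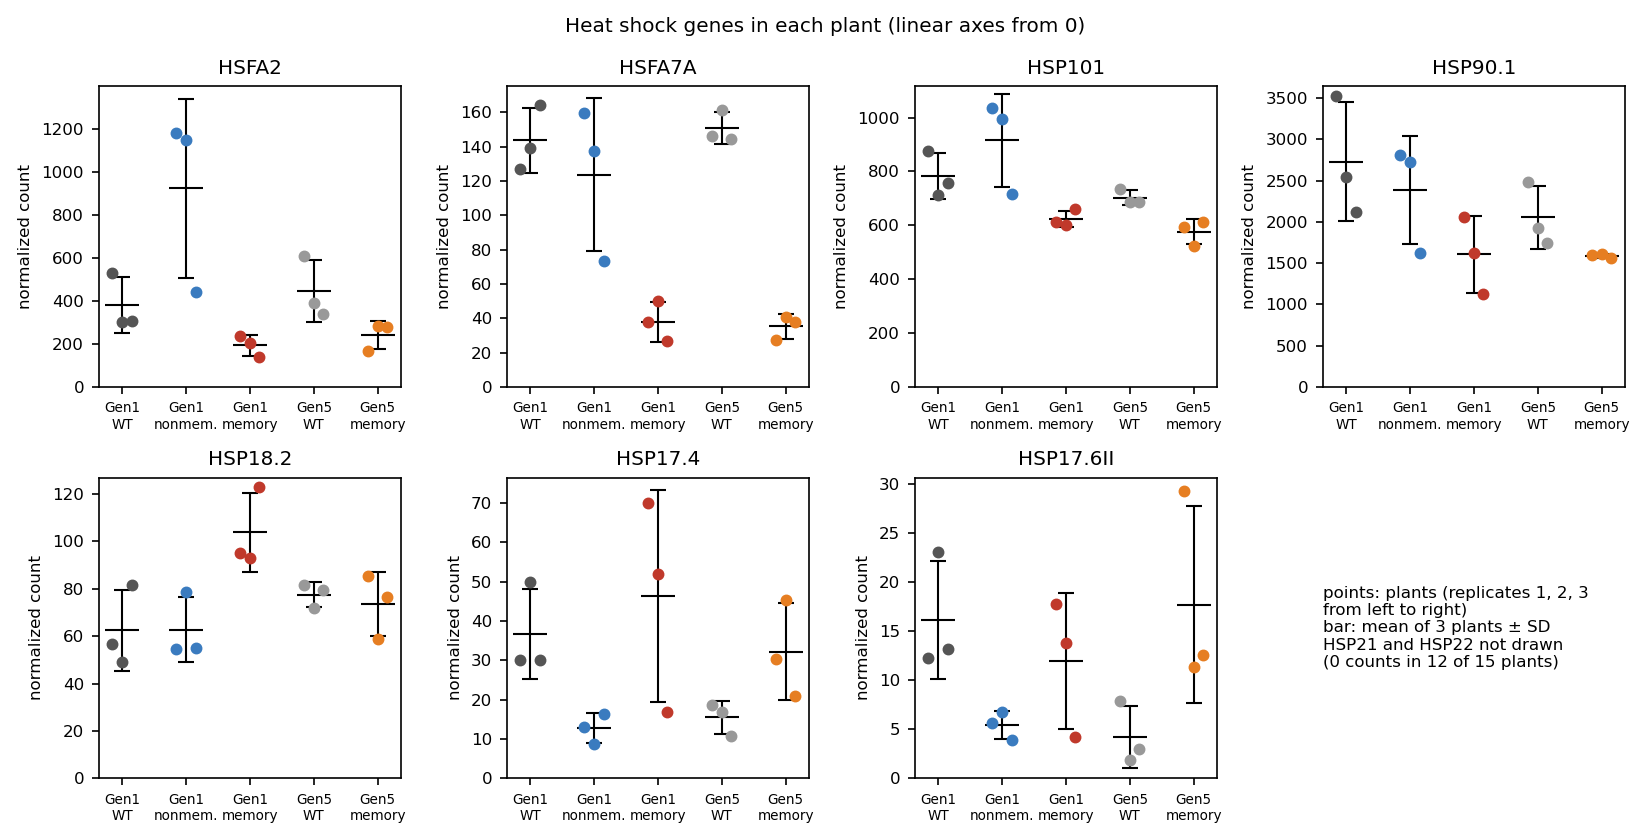
Normalized counts (y axes, linear from 0) of the 7 expressed heat shock genes in each plant of the 5 groups (x axes); points are plants and bars the group mean ± SD of 3 plants. The 6 memory plants lie below all 9 others for HSFA2, HSFA7A and HSP101, with at most 281, 49.8 and 659 normalized counts, whereas the small heat shock protein genes show no such split.

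HSFA2 and HSFA7A were lower in memory plants than in every control group. HSFA2 fell 4.78-fold against Gen1 nonmemory, 1.96-fold against Gen1 WT and 1.84-fold in Gen5, and HSFA7A fell 3.24-fold, 3.74-fold and 4.27-fold. In the main edgeR fit of each comparison, HSP101 was called lower against nonmemory and not against WT, and HSP90.1 was not called. DESeq2, and edgeR with all 15 plants in one fit, called HSP90.1 lower than in Gen1 WT. HSP18.2 and HSP17.4 were called higher in Gen1 memory than in nonmemory. Against WT the main edgeR fits called no small heat shock protein gene in either generation. DESeq2, and edgeR with all 15 plants in one fit, called HSP18.2 higher than in Gen1 WT. A call needed an FDR-adjusted p under 0.05 (Benjamini-Hochberg, over all genes tested) together with a log2 fold change beyond 0.5 in either direction. For 3 of the 9 genes (HSFA2, HSFA7A and HSP101) the 6 memory plants lay below all 9 others, as they did for 13.7% of the 19789 genes with average counts of 10 or more. HSP21 and HSP22 did not reach that average.

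The share of called genes was large in all 3 comparisons. Against Gen1 nonmemory, 5 of the 6 heat shock genes tested were called, 2 higher and 3 lower, where 23.4% of all 19760 tested genes were called (11.1% higher and 12.2% lower). Against Gen1 WT it was 2 of 7, both lower in memory, beside 20.0% of 19849 genes (9.52% higher and 10.5% lower). In Gen5 it was 2 of 6, both lower in memory, beside 27.0% of 19800 (13.3% higher and 13.7% lower). The medians of the log2 fold changes of the tested heat shock genes were -0.56, -0.42 and -0.32, where those of all genes were 0.01, -0.01 and 0.01. The shares in the comparisons with WT thus stood near the share of all genes. Of the 6 leaf markers, 4, 3 and 4 were called higher in memory in these 3 comparisons, and 0 lower. In whole rosettes, fewer cells of a type and less RNA per cell cannot be told apart. The part of the higher summed leaf marker level of memory plants in these results was not tested.

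HSFA2 lies on chromosome 2 from 11135624 to 11137792 and has 3 exon blocks. Gen1 memory replicates 1, 2 and 3 had 235, 202 and 139 normalized counts, Gen1 nonmemory replicates 1178, 1146 and 443, and Gen1 WT replicates 531, 303 and 304. In Gen5, memory replicates had 166, 281 and 279 and WT replicates 610, 391 and 340. No memory plant reached the lowest of the 9 others, and nonmemory replicates 1 and 2 stood far above all remaining plants. Group means were 192 ± 48.9 in Gen1 memory, 922 ± 416 in nonmemory, 379 ± 131 in Gen1 WT, 242 ± 66.0 in Gen5 memory and 447 ± 143 in Gen5 WT (SD, n = 3 each). Gen1 memory had -2.26 against nonmemory on the log2 scale (standard error, SE, 0.39, edgeR FDR-adjusted p = 0.00343), a call that each of 6 fits with 1 plant left out kept. Against Gen1 WT it was -0.97 (SE 0.28, edgeR FDR-adjusted p = 0.0358), and in Gen5 -0.88 (SE 0.28, edgeR FDR-adjusted p = 0.0346).

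The 2 calls of HSFA2 against WT depended on single plants. The Gen1 call was lost without WT replicate 1 (edgeR FDR-adjusted p = 0.104), WT replicate 2 (0.0517), memory replicate 2 (0.0852) or memory replicate 3 (0.0814). The Gen5 call was lost without WT replicate 1 (edgeR FDR-adjusted p = 0.117), WT replicate 2 (0.0601), memory replicate 1 (0.0884) or memory replicate 3 (0.0526). The direction stayed negative in all 12 of these fits, between -1.13 and -0.65 in Gen1 and between -1.04 and -0.59 in Gen5.

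HSFA7A, on chromosome 3 from 19265141 to 19266806 with 2 exon blocks, was lower in memory plants in each comparison. Gen1 memory replicates had 37.6, 49.8 and 26.5 normalized counts, nonmemory replicates 159.5, 138 and 73.6, and Gen1 WT replicates 127, 139 and 164. Gen5 memory replicates had 27.1, 40.8 and 37.7 and Gen5 WT replicates 146, 161 and 144. The highest memory plant, at 49.8, lay below the lowest of the others, nonmemory replicate 3 at 73.6. Group means were 38.0 ± 11.6 in Gen1 memory, 124 ± 44.6 in nonmemory, 144 ± 18.8 in Gen1 WT, 35.2 ± 7.18 in Gen5 memory and 151 ± 9.31 in Gen5 WT (SD, n = 3 each). Log2 fold changes were -1.69 against nonmemory (SE 0.37), -1.90 against Gen1 WT (0.27) and -2.09 in Gen5 (0.22), with edgeR FDR-adjusted p-values of 0.00916, 0.00202 and 0.000257. All 3 calls held in each of the 6 fits that left out 1 plant and under each of the 6 other settings tried.

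**Figure D2:**
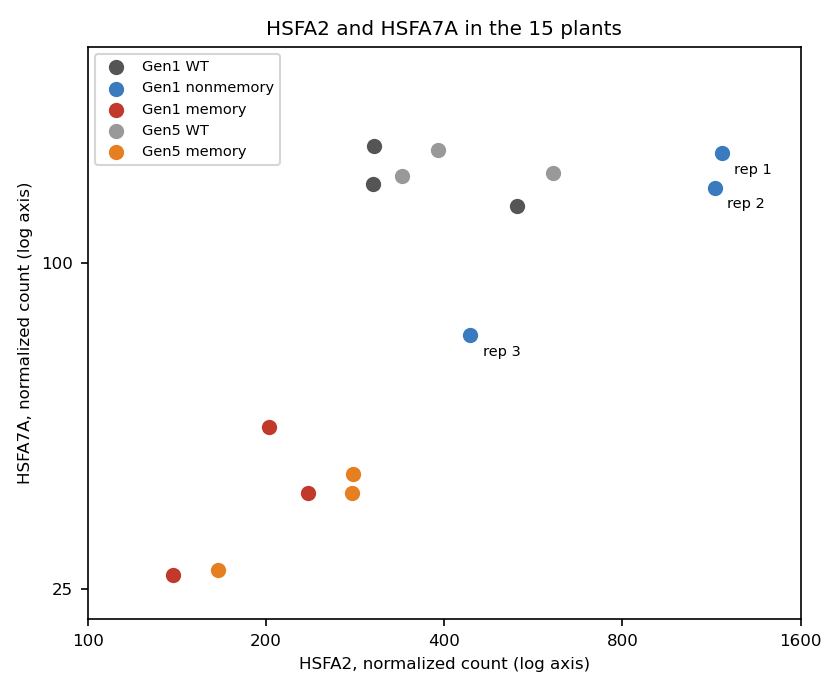
HSFA2 (x axis) against HSFA7A (y axis), both as normalized counts on log axes, with 1 point per plant coloured by group. The 6 memory plants fill the lower left, with HSFA2 at 139 to 281 and HSFA7A at 26.5 to 49.8 normalized counts, and nonmemory replicate 3 (443 and 73.6) has the lowest HSFA7A level of the other 9 plants.

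HSP101, the disaggregase of the CLPB family, lies on chromosome 1 from 27936508 to 27940369. Its normalized counts were 613, 600 and 659 in Gen1 memory replicates 1, 2 and 3, 1036, 994 and 716 in nonmemory and 876, 711 and 759 in Gen1 WT. In Gen5 they were 592, 523 and 614 in memory and 735, 687 and 687 in WT. The memory plants again lay below all others, by a narrow margin: the highest had 659 and the lowest of the others 687. The log2 fold change against nonmemory was -0.55 (SE 0.15, edgeR FDR-adjusted p = 0.0212). This call was lost without nonmemory replicate 1 (edgeR FDR-adjusted p = 0.0746), nonmemory replicate 2 (0.0787) or memory replicate 2 (0.0644). Against Gen1 WT the value was -0.31 (SE 0.10, edgeR FDR-adjusted p = 0.0539), whereas Gen5 gave -0.28 (SE 0.10, edgeR FDR-adjusted p = 0.0592), both under the fold-change threshold. HSP101 shares 101 bases with AT1G74300 on the other strand, and the strand setting of the counting is not given, so reads there cannot be assigned with certainty. AT1G74300 had means of 1492 and 1593 normalized counts in Gen1 and Gen5 memory and 1155 to 1282 in the other groups, so that it was higher and not lower in memory plants.

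HSP90.1, a cytosolic chaperone on chromosome 5 from 21352557 to 21355147, had 2061, 1627 and 1124 normalized counts in Gen1 memory replicates 1, 2 and 3. Nonmemory replicates had 2808, 2724 and 1627, and Gen1 WT replicates 3525, 2537 and 2117. Gen5 memory replicates had 1592, 1609 and 1565 and Gen5 WT replicates 2486, 1923 and 1748. Gen1 memory overlapped nonmemory but not WT, and Gen5 memory lay below Gen5 WT with almost no spread (1588 ± 22.4, against 2052 ± 386, SD, n = 3 each). On the log2 scale HSP90.1 had -0.57 relative to nonmemory, -0.75 relative to Gen1 WT and -0.37 in Gen5 (SEs 0.26, 0.25 and 0.13), with edgeR FDR-adjusted p-values of 0.127, 0.0553 and 0.0493. The Gen5 value passed the p threshold but not the fold threshold. The gene became called against Gen1 WT without WT replicate 3 (edgeR FDR-adjusted p = 0.0468) or memory replicate 1 (0.0276), and against nonmemory without nonmemory replicate 3 (0.0465). With all plants kept, it was called against Gen1 WT by DESeq2 (adjusted p = 0.00788), without the expression filter (edgeR FDR-adjusted p = 0.0488) and with all 15 plants in one fit (0.0221).

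HSP18.2, HSP17.4 and HSP17.6II did not follow the factors. HSP18.2 (chromosome 5 from 24062323 to 24063300) had 95.2, 93.2 and 123 normalized counts in Gen1 memory replicates 1, 2 and 3, above all nonmemory (54.4, 78.5 and 55.2) and Gen1 WT replicates (56.5, 49.0 and 81.6). In Gen5 memory plants had 85.5, 58.9 and 76.3 and WT plants 81.5, 71.7 and 79.5, so the groups overlapped. The rise against nonmemory was 0.73 on the log2 scale (SE 0.24, edgeR FDR-adjusted p = 0.046), and the value against Gen1 WT, 0.75, missed the threshold (SE 0.26, edgeR FDR-adjusted p = 0.0614). The Gen5 value was -0.07 (SE 0.23, edgeR FDR-adjusted p = 0.827). The call against nonmemory held only without nonmemory replicate 2 (edgeR FDR-adjusted p = 0.0417) and was lost without nonmemory replicate 1 (0.137) or 3 (0.142) and without memory replicate 1 (0.064), 2 (0.0644) or 3 (0.116). It was also lost without the expression filter (edgeR FDR-adjusted p = 0.0534). HSP18.2 was called against Gen1 WT without Gen1 WT replicate 3 (edgeR FDR-adjusted p = 0.0375), with all 15 plants in one fit (0.0245) and by DESeq2 (0.0378).

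HSP17.4 (chromosome 3 from 16984118 to 16984867) had 70.1, 51.9 and 17.0 normalized counts in Gen1 memory replicates 1, 2 and 3. Nonmemory replicates had 13.1, 8.72 and 16.5, just below the lowest memory plant, and Gen1 WT replicates 30.2, 50.0 and 30.0. Gen5 memory replicates had 30.3, 45.3 and 20.9, all above the Gen5 WT replicates at 18.7, 17.0 and 10.8. By group mean, Gen1 WT (36.7) thus stood near Gen1 memory (46.3) and Gen5 memory (32.2), and Gen5 WT (15.5) near nonmemory (12.8). Single plants did not all follow this, as Gen1 memory replicate 3 lay among the Gen5 WT plants. The rise in Gen1 memory against nonmemory was 1.85 on the log2 scale (SE 0.55, edgeR FDR-adjusted p = 0.0316), and it was lost in every fit that left out 1 plant but that without memory replicate 3 (edgeR FDR-adjusted p = 0.00418). The values in those fits were 0.087, 0.107 and 0.0663 without nonmemory replicates 1, 2 and 3, and 0.0915 and 0.0826 without memory replicates 1 and 2. Against Gen1 WT the log2 fold change was 0.35 (SE 0.50, edgeR FDR-adjusted p = 0.636) and in Gen5 1.05 (SE 0.40, edgeR FDR-adjusted p = 0.0713). The gene overlaps AT3G46220 by 60 bases and AT3G07365 by 453 bases, both on the other strand. Reads on several genes were left out, so the level of HSP17.4 may be too low if strand was ignored in the counting. AT3G07365 had a mean of at most 1.57 normalized counts in any group, and AT3G46220 had 1860 to 2023.

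HSP17.6II (chromosome 5 from 3882231 to 3883111) was the weakest of the genes with counts in every plant. Gen1 memory replicates 1, 2 and 3 had 17.8, 13.8 and 4.24 normalized counts, nonmemory replicates 5.63, 6.78 and 3.87 and Gen1 WT replicates 12.3, 23.1 and 13.1. Gen5 memory replicates had 29.2, 11.3 and 12.6, all above Gen5 WT at 7.85, 1.89 and 2.95. It failed the expression filter against nonmemory and in Gen5. Against Gen1 WT its log2 fold change was -0.42 (SE 0.55, edgeR FDR-adjusted p = 0.599). Fitted without the filter, it gave 1.12 against nonmemory (edgeR FDR-adjusted p = 0.25) and 2.04 in Gen5 (edgeR FDR-adjusted p = 0.0516), neither called. Its closest copy in the genome, AT5G12030, matched at 81.8% identity over 702 bases, the highest identity found for any of the 9 genes, and only uniquely mapped reads were counted.

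**Figure D3:**
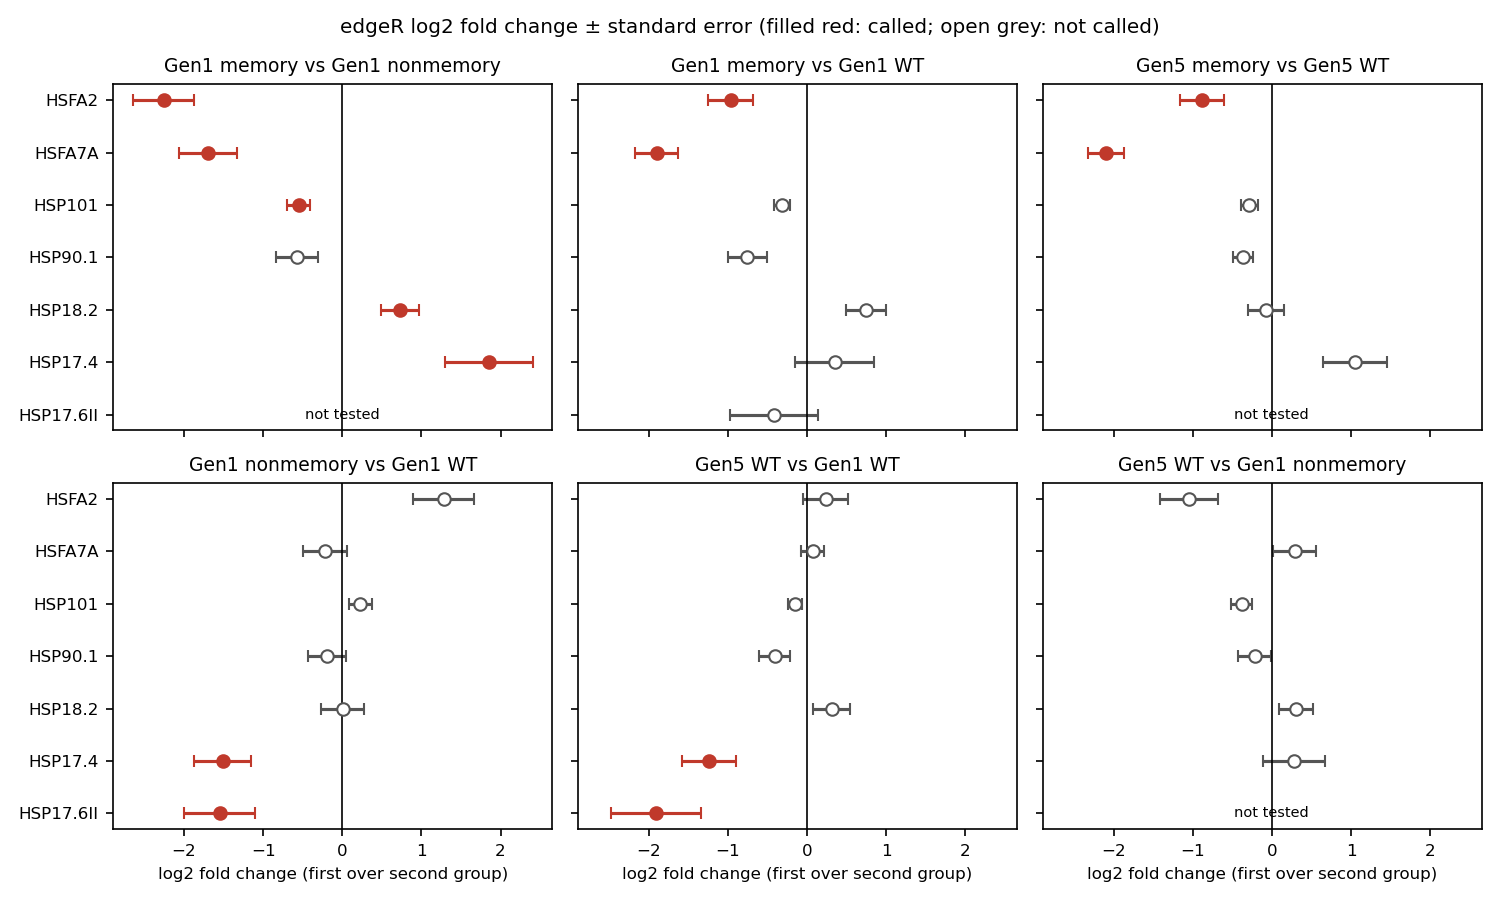
Log2 fold change (x axis, first over second group) ± SE of the 7 expressed heat shock genes (y axis) in 6 comparisons of 3 plants against 3; filled red points were called and open grey points were not. HSFA2 and HSFA7A lie left of 0 in all 3 memory comparisons (upper panels, -2.26 to -0.88), and HSP17.4 and HSP17.6II lie left of 0 in nonmemory and Gen5 WT against Gen1 WT (-1.91 to -1.24).

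The control groups were also compared among themselves. Between nonmemory and Gen1 WT 2 of 7 tested heat shock genes were called, both lower in nonmemory, beside 7.71% of all tested genes (4.89% lower). HSP17.4 had a log2 fold change of -1.51 (SE 0.36, edgeR FDR-adjusted p = 0.0271) and HSP17.6II of -1.55 (SE 0.45, edgeR FDR-adjusted p = 0.0497). The HSP17.4 call held only without Gen1 WT replicate 3 (edgeR FDR-adjusted p = 0.0317), with 0.0538 to 0.0939 without each of the other 5 plants, and the HSP17.6II call was lost in all 6 fits (0.0624 to 0.163). HSFA2 was 1.28 higher in nonmemory on the log2 scale (SE 0.38) and was not called (edgeR FDR-adjusted p = 0.0535). DESeq2 (adjusted p = 0.0485), edgeR without the expression filter (0.0419) and edgeR with all 15 plants in one fit (0.0343) called HSFA2, and none of these 3 called HSP17.6II (0.0834, 0.071 and 0.116). The one fit of 15 plants did not call HSP17.4 either (edgeR FDR-adjusted p = 0.0598). Without nonmemory replicate 3, the plant with 443 normalized counts of HSFA2, the HSFA2 difference was 1.61 and called (edgeR FDR-adjusted p = 0.019). HSFA7A (-0.22), HSP101 (0.23), HSP90.1 (-0.19) and HSP18.2 (0.01) had edgeR FDR-adjusted p-values of 0.322 or more.

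Gen5 WT and Gen1 WT differed in the same pair of genes, 2 of 7 tested and both lower in Gen5 WT, beside 10.7% of all tested genes (6.05% lower). HSP17.4 was at -1.24 (SE 0.35, edgeR FDR-adjusted p = 0.0364) and HSP17.6II at -1.91 (SE 0.57, edgeR FDR-adjusted p = 0.0447). Each call held in 1 of 6 fits with a plant left out, HSP17.4 without Gen1 WT replicate 3 (edgeR FDR-adjusted p = 0.0426, 0.0578 to 0.117 without the others) and HSP17.6II without Gen5 WT replicate 1 (0.0318, 0.0571 to 0.142 without the others). With all 15 plants in one fit neither was called (edgeR FDR-adjusted p = 0.0977 for HSP17.4 and 0.0543 for HSP17.6II), and HSP17.6II was not called without the expression filter (0.056). Both comparisons share the Gen1 WT plants, so they are not independent. Between Gen5 WT and nonmemory, edgeR called 0 of 6 tested heat shock genes, beside 1.70% of all tested genes, and DESeq2 also called 0. HSFA2 (-1.04) and HSP101 (-0.38) had unadjusted edgeR p-values of 0.022 each and adjusted ones of 0.169. Without nonmemory replicate 3 both were called, with edgeR FDR-adjusted p-values of 0.0349 and 0.0223.

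Memory plants of the 2 generations were compared directly and through their own WT. Between Gen5 memory and Gen1 memory edgeR called 0 of 7 heat shock genes, 0 of which had an unadjusted p under 0.05, and DESeq2 called 0. In that comparison edgeR called 0 of 19716 genes. HSFA2 differed by 0.33 (SE 0.28) and HSFA7A by -0.11 (SE 0.36) on the log2 scale, with edgeR FDR-adjusted p-values of 1. The difference of the memory effect against WT between Gen5 and Gen1, an interaction fitted on 12 plants, was called for 0 of 7 genes by edgeR and by DESeq2, beside 5.24% of all tested genes. It was 0.08 for HSFA2 (SE 0.43), -0.20 for HSFA7A (0.34), 0.02 for HSP101 (0.14) and 0.38 for HSP90.1 (0.31). HSP17.6II (2.46, SE 0.90) and HSP18.2 (-0.82, SE 0.33) had unadjusted p-values of 0.0183 and 0.0291 and edgeR FDR-adjusted p-values of 0.141 and 0.181.

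Within groups, the order of the plants was compared between genes. Nonmemory replicate 3 was the lowest of its group and replicate 1 the highest for each of HSFA2, HSFA7A, HSP101 and HSP90.1. Gen1 WT replicate 1 and Gen5 WT replicate 1 were the highest of their groups for HSFA2, HSP101 and HSP90.1 and not for HSFA7A. Among memory plants HSP101 departed from the other 3 genes: Gen1 replicate 3 was the lowest for HSFA2, HSFA7A and HSP90.1 and the highest for HSP101, and Gen5 replicate 2 was the highest for those 3 and the lowest for HSP101. After subtraction of group means, HSFA2 had a Pearson correlation over the 15 plants of 0.88 with HSP90.1, 0.67 with HSFA7A and 0.67 with HSP101, against -0.12 with HSP18.2, 0.12 with HSP17.4 and 0.28 with HSP17.6II. These are descriptions over 15 libraries, with 10 degrees of freedom left in the deviations. HSP17.4 and HSP17.6II went together, with 0.73 over the 15 plants and 0.53 after subtraction of group means. HSP18.2 had -0.01 with HSP17.4 and -0.03 with HSP17.6II over the 15 plants, and -0.68 and -0.03 after subtraction of group means.

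Other genes of the heat response were drawn from lists of the HSF, small heat shock protein, HSP70, HSP90 and CLPB families and of co-chaperones. Of 19 other HSF genes, 16 were tested against nonmemory (1 was higher and 4 were lower), 16 against Gen1 WT (2 and 5) and 15 in Gen5 (3 and 1). The shares of all tested genes called were 23.4%, 20.0% and 27.0%. AT5G45710 (symbol RHA1, the HSFA4C gene) fell in all 3, with log2 fold changes of -1.01, -1.03 and -1.12 (edgeR FDR-adjusted p = 0.000412, 0.000197 and 0.000985). HSFA1E, one of the constitutive activators that start the heat response, fell against nonmemory and Gen1 WT (-0.61 and -0.92) and had -0.30 in Gen5 (edgeR FDR-adjusted p = 0.122). HSFA8 rose by 0.72 against nonmemory and 0.67 in Gen5, HSFB4 rose by 0.61 against Gen1 WT and 0.85 in Gen5, and HSFC1 rose by 1.35 in Gen5 and had -0.75 and 0.35 against nonmemory and Gen1 WT (edgeR FDR-adjusted p = 0.137 and 0.304). HSFC1 was also lower in Gen5 WT than in Gen1 WT (-0.83, edgeR FDR-adjusted p = 0.0121). Of the class B factor genes, AT-HSFB2B fell against nonmemory (-0.65, edgeR FDR-adjusted p = 0.0107) and HSFB2A had -0.19 there (0.459). AT-HSFB2B and HSFB2A fell against Gen1 WT (-0.57 and -1.15) and had 0.22 and -0.12 in Gen5 (edgeR FDR-adjusted p = 0.161 and 0.674).

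Of the small heat shock protein genes outside the 9, 0 were called higher and 2 lower of 10 tested against nonmemory, 0 and 1 of 10 against Gen1 WT, and 3 and 1 of 9 in Gen5, where all tested genes were called at 23.4%, 20.0% and 27.0%. AT4G21870 fell in all 3 (-1.18, -1.13 and -2.50), from means of 286 ± 52.8, 278 ± 23.0 and 680 ± 59.9 normalized counts in nonmemory, Gen1 WT and Gen5 WT to 126 ± 21.4 in memory plants of Gen1 and 120 ± 29.3 in those of Gen5 (SD, n = 3 each). AT1G59860 fell against nonmemory (-1.26, edgeR FDR-adjusted p = 0.0484), and AT2G29500 (0.91) and AT5G54660 (0.75) rose in Gen5. HSP23.6-MITO and AT1G53540, a close relative of HSP17.4 and HSP18.2, had group means under 10 normalized counts everywhere.

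**Figure D4:**
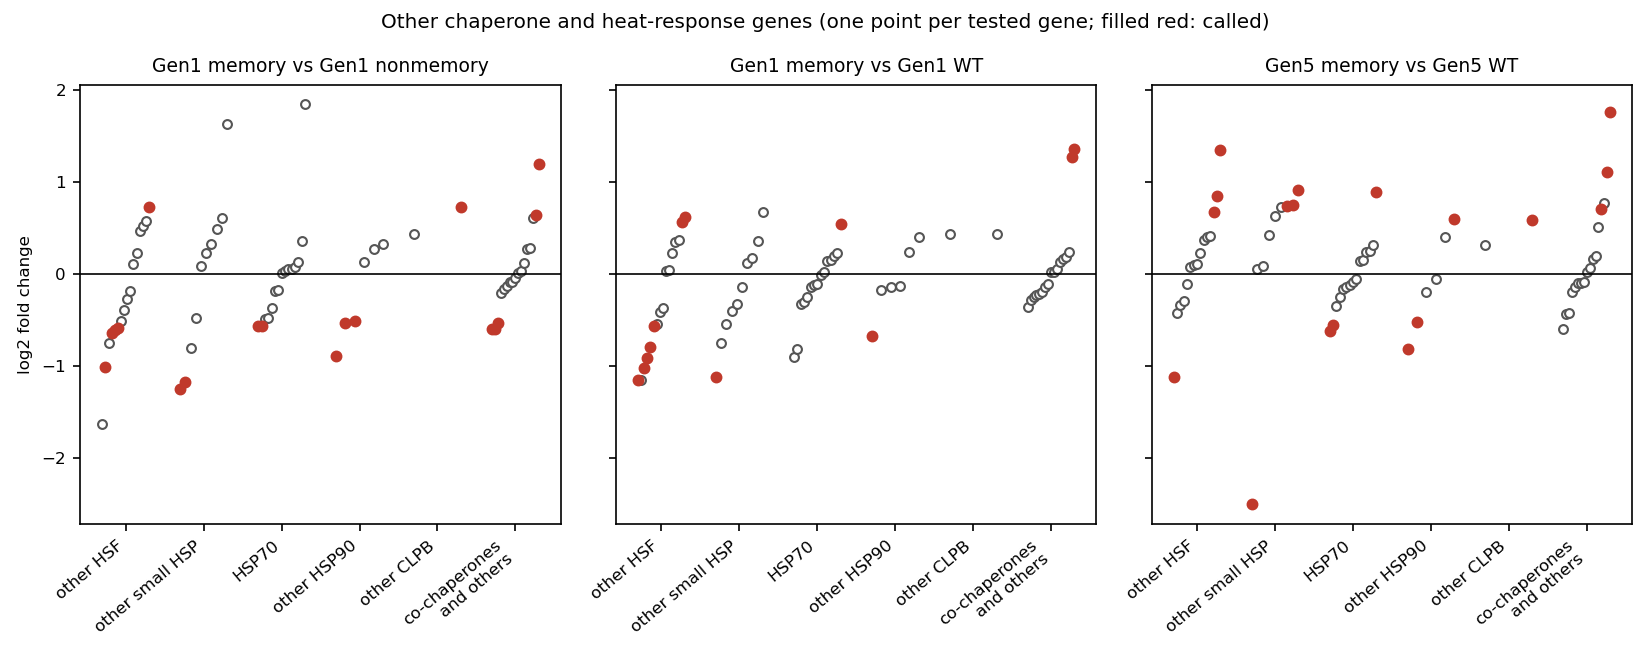
Log2 fold changes (y axis) of the tested genes of 6 lists of other chaperone and heat-response genes (x axis) in the 3 memory comparisons, 1 point per gene; filled red points were called and open grey points were not. Most points are open, and AT4G21870 is the lowest point in Gen5 (-2.50) and DREB2A the highest (1.76).

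Of 15 tested HSP70 genes, 0 were called higher and 2 lower against nonmemory, 1 and 0 against Gen1 WT, and 1 and 2 in Gen5, in each case a smaller share than of all genes (23.4%, 20.0% and 27.0%). The mitochondrial mtHsc70-1 fell against nonmemory and in Gen5 (-0.57 and -0.63), as did Hsp70-15 (-0.57 and -0.56), whereas the heat-inducible Hsp70b rose by 0.55 against Gen1 WT and AT3G09440 by 0.89 in Gen5. Of 6 other HSP90 genes, 0 were higher and 3 lower against nonmemory, 0 and 1 against Gen1 WT, and 1 and 2 in Gen5. CR88, the chloroplast HSP90, fell in all 3, with values of -0.89, -0.67 and -0.82 (edgeR FDR-adjusted p = 0.00158, 0.00561 and 0.00396). The mitochondrial Hsp89.1 fell against nonmemory and in Gen5 (-0.54 and -0.52), the cytosolic HSP81-2 fell by 0.52 against nonmemory, and HSP81-3, another cytosolic form, rose by 0.59 in Gen5. CLPB4, a mitochondrial relative of HSP101, rose by 0.73 and 0.59 against nonmemory and in Gen5 and had 0.43 against Gen1 WT, under the fold threshold.

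Among 17 tested co-chaperones and other heat-response genes, 2 were higher and 3 lower against nonmemory, 2 and 0 against Gen1 WT, and 3 and 0 in Gen5. Of all tested genes, 23.4%, 20.0% and 27.0% were called in these comparisons. BAG6, a calmodulin-binding cochaperone, rose in all 3, by 1.20, 1.36 and 1.11, from means of 741 to 877 normalized counts in the control groups to 1888 ± 78.6 in memory plants of Gen1 and 1890 ± 201 in those of Gen5 (SD, n = 3 each). DREB2A, a drought and heat factor upstream of HSFA3, rose by 1.27 against Gen1 WT and 1.76 in Gen5 and had 0.61 against nonmemory (edgeR FDR-adjusted p = 0.206). MBF1C rose by 0.70 in Gen5 and had -0.13 and -0.22 against nonmemory and Gen1 WT (edgeR FDR-adjusted p = 0.694 and 0.34). MBF1C and DREB2A were also lower in Gen5 WT than in Gen1 WT (-0.69 and -0.81, edgeR FDR-adjusted p = 0.00177 and 0.0217). J2 fell by 0.60 against nonmemory. AT2G20560 rose by 0.63 against nonmemory. The heat shock genes called lower in memory thus stood beside heat-response genes called in either direction, as all tested genes also were.

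Genes averaging 100 counts or more were ranked by their Pearson correlation, over the 15 plants, with the mean of the 9 genes, each standardised on the log2 scale. TPR5 came first (0.85), followed by WRKY38 (0.84), AT1G27350 (0.825), AT5G02502 (0.821), AT4G17420 (0.811), AT3G21295 (0.806), NAC2 (0.796) and AT5G55970 (0.793). Over the 9 plants outside the memory groups these 8 genes had 0.782 to 0.916 with the mean. HSP21 and HSP22, at 0 in most plants, weigh in this mean as much as the others. A ranking on HSFA2 alone was added after the values had been seen and put AT1G26800 first (0.936). It held Fes1A, a co-chaperone of HSP70 that protects plants in heat, in the fourth place (0.911 over 15 plants and 0.98 over the 9). The others of its first 8 were AT5G57290, RANBP1, AT5G66860, SD3, AT3G02080 and UBQ6, none of them in the lists above. A ranking on HSFA7A put AT5G43190 first (0.979), then IKU1, ATHB13, MYB70, AT3G04930, TPS8, AT1G27290 and XTH30. Over the 9 plants outside the memory groups these 8 genes had only 0.493 to 0.808 with HSFA7A. None of these is in the lists above either. Fes1A had means of 1816 ± 333 normalized counts in nonmemory, 1248 ± 79.1 in Gen1 memory and 1394 ± 248 in Gen1 WT (SD, n = 3 each), and it fell against nonmemory (-0.54, edgeR FDR-adjusted p = 0.0184). Its values against Gen1 WT and in Gen5 were -0.15 and -0.10, with edgeR FDR-adjusted p-values of 0.42 and 0.498.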

How the data were processed

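RNA from 15 plants was sequenced as 150-bp reads. The authors aligned them with STAR (2.7.0a; TAIR10, per the labels' processing notes), ran QoRTs on the reads with a unique match and deposited the raw counts of each gene, 1 table per plant, without normalization. Reads on no gene or on several made up 0.879% to 1.08% of each table and were left out, and all 285 organelle genes stood at 0. Totals were 77169986 to 79202824 counts, and plants of 1 group differed by more than counting error.

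From the counts, each comparison was fitted on its own plants with edgeR 4.0.16 in R 4.3.3 (TMM, filterByExpr, quasi-likelihood F test) and p-values were adjusted over all genes tested. Standard errors are the absolute log2 fold change over the square root of F. The genes and lists were chosen with earlier results of these data known. All 9 genes are named in every comparison. From each list at most the 3 largest called changes per memory comparison are named, and genes called with opposite signs. Fes1A, AT1G53540 and HSP23.6-MITO were named after their values were seen. Symbols and coordinates are from RefSeq TAIR10.1, and all 9 genes matched. RPKM was computed from normalized counts and exon length. Copies were sought with blastn 2.17.0. The limits given for HSP21 and HSP22 cover counting error only. SDs and SEs include the spread between plants. DESeq2 1.42.0, RLE factors, other filters, all plants in one fit, a replicate block and each plant left out were tried.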

Additional observations from a re-analysis of the deposited data

Results flagged for a closer look

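By edgeR's interaction test, a memory effect that differed in size between generations was called for 0 of 7 heat shock genes tested. HSP21 and HSP22 were not tested. Such a difference was called for 4 related genes of the lists. The effect of memory against WT was higher in Gen5 than in Gen1 for AT-HSFB2B (difference 0.78 on the log2 scale, edgeR FDR-adjusted p = 0.0203), HSFB2A (1.03, edgeR FDR-adjusted p = 0.0316) and AT5G54660 (0.89, edgeR FDR-adjusted p = 0.0371). It was lower for AT4G21870 (-1.38, edgeR FDR-adjusted p = 0.00882). All 4 genes also differed between Gen5 WT and Gen1 WT, with log2 fold changes of -0.64, -1.12, -0.77 and 1.29 in the same order of AT-HSFB2B, HSFB2A, AT5G54660 and AT4G21870. Between Gen5 memory and Gen1 memory edgeR called none of them.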

How the results depend on the processing

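The calls of HSFA7A in the 3 memory comparisons and of HSFA2 against nonmemory held under RLE size factors, DESeq2, either other filter (none, or 10 counts or more in every plant), a fit of all 15 plants, the replicate block and each plant left out. With all 15 plants in one fit HSFA2 was called neither against Gen1 WT (edgeR FDR-adjusted p = 0.0524) nor in Gen5 (0.0618), and the replicate block ended the Gen5 call (0.0795). Against nonmemory, the block ended the calls of HSP18.2 (0.0824) and HSP17.4 (0.0668) and called HSP90.1 (0.00558). Against Gen1 WT, 4 heat shock genes were called with DESeq2 and 4 with the block, not 2, with HSP90.1 and HSP18.2 added each time. In Gen5 the block left 1 of 2. Nonmemory against Gen1 WT had 0 calls with at least 10 counts in every plant (a filter HSP17.4 and HSP17.6II fail), 1 with all 15 plants and 1 with the block, both times HSFA2 and neither of the 2 small genes. Of the 2 calls of Gen5 WT against Gen1 WT, 1 held without an expression filter, 1 with at least 10 counts, 0 with all 15 plants and 1 with the block. With 1 plant left out, the number of called genes ran from 2 to 4 against nonmemory, from 1 to 4 against Gen1 WT, from 1 to 3 in Gen5, from 0 to 1 in nonmemory against Gen1 WT, from 0 to 1 in Gen5 WT against Gen1 WT, and from 0 to 2 in Gen5 WT against nonmemory. The cause of these changes was not tested. Correlations of the deviations of same-numbered plants ran from -0.369 to 0.523 and in no comparison exceeded 0.1 for all 3 pairs. Replicates 1 and 3 had 0.379 and 0.372 in Gen1 memory against Gen1 WT, and 0.419 and 0.523 in Gen5 WT against Gen1 WT. HSP90.1 fell from replicate 1 to replicate 3 in every group but Gen5 memory. Whether same-numbered plants shared a condition was not tested. No call of the 9 genes changed its direction. Depth limits HSP21 and HSP22, with 4 and 7 counts in all, and HSP17.6II, with 2 to 27 raw counts per plant.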
